A study of Mus musculus with 6 samples.

Results

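The translation initiation factors described here are the 54 genes whose symbol in the transcript lines began with Eif1 to Eif6. Names holding ak, -ps or os were left out, which removed the eIF2 kinases and the numbered pseudogenes. The files named or assembled 58210 genes in all. GL261 is a mouse glioma cell line, and the design compared its RNA after propionate, a bacterial fermentation product, with a matched salt control. The control group was 3 libraries of GL261 total RNA taken 4 h after sodium chloride at 1 uM, and the propionate group was 3 libraries taken 4 h after sodium propionate at 1 uM, per the labels. No genotype, transgene or other agent is named for either group. Separate cultures are not named for the 3 libraries of a group, so the p-values here describe the spread between libraries, which may be technical.

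Initiation begins when the small ribosomal subunit, carrying the initiator tRNA on the GTP-binding complex eIF2, is held open by eIF1, eIF1A and the large scaffold eIF3. The cap-binding protein eIF4E, the scaffold eIF4G and the helicase eIF4A bring this subunit to the capped 5′ end of an mRNA, and the 4E-BP proteins block the step by covering the eIF4G site on eIF4E. After the start codon is found, eIF5 and eIF5B lead to GTP hydrolysis and joining of the large subunit, and the exchange factor eIF2B reloads eIF2 with GTP. Much of the control of this system acts on the proteins, through phosphorylation and binding, which RNA levels do not show.

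The libraries held 9.15 to 11.3 Gb of counted bases. Chloride 3 and propionate 1 had fewer covered transcript models (71452 and 71192) than the other 4 libraries (81178 to 82370). For some results, though not for all, values without this pair are also given. Mitochondrial transcripts took 1.48% to 2.15% of the abundance. Of 9 glioma and neural stem markers, 7 stood at 1 TPM or more on average, led by Vim, while Egfr was listed at 0 in 5 of the 6 libraries. The summed level of 6 microglia and macrophage markers was 1.40 to 2.05 TPM, most of it Csf1r, with Itgam and Adgre1 listed at 0 throughout. Markers of T cells and of endothelium summed to under 0.3 TPM in each library. The fibroblast and pericyte list summed to 76.4 to 100.4 TPM, nearly all of it Col1a1, with Dcn at or near 0. The neuron list summed to 34.7 to 41.3 TPM, nearly all of it Map2, with Rbfox3 and Snap25 listed at 0. The part of such cells in the results was not tested. In bulk RNA, fewer cells of a type and less RNA per cell cannot be told apart.

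All levels are scaled TPM, a relative transcript abundance per length, shown as mean ± SD over the 3 libraries of a group. Differences are on the log2(scaled TPM + 1) scale, propionate minus chloride, with a standard error (SE). Values by library run in the order chloride 1, 2 and 3 and propionate 1, 4 and 5. A gene was tested when its mean reached 1 TPM. Of the 54 members, 47 were tested and 7 were not. Together the members took 0.699% to 0.802% of all TPM in each library.

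No initiation factor gene changed between the salts past an adjusted p of 0.05 (limma, Benjamini-Hochberg over all genes). Among all 15504 tested genes 1 was called, or 0.00645%. The members' adjusted p ran from 0.914 to 0.998. At an unadjusted p under 0.05, 1 member was higher, Eif4ebp1, and 1 was lower, Eif4a2, against 2.16% of all genes higher and 2.97% lower. The groups did not overlap for 4 members higher in propionate (Eif4ebp1, Eif5a, Eif3g and Eif3l) and 2 lower (Eif4a2 and Eif5b). Over all genes the shares without overlap were 5.26% higher and 6.48% lower, so in this fit the members' counts were near the background. With TPM as deposited, without scaling of the libraries, these counts were 0 higher and 5 lower, against 1.05% and 14.7% of all genes. Overlap was not assessed on quantile-normalized values. Without chloride 3 and propionate 1 they were 17 higher and 4 lower of 47, against 19.3% and 18.5% of all genes. Without propionate 1 alone they were 15 and 4 of 47, against 14.7% and 14.0%. With these libraries left out, the members' share higher thus exceeded that of all genes, and their share lower was under it. The cause was not tested.

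The differences were small. In 45 of the 47 tested members the log2 difference lay within 0.2 of 0, and in 46 the 95% interval lay within 0.5 of 0. The median difference was 0.03 for the members and 0.01 for all tested genes, and with TPM as deposited these were -0.06 and -0.08. Of the tested members, 33 lay above 0 and 14 below, against 8022 above and 7482 below over all tested genes. The wide interval belongs to Eif3j2, described below with its near-identical partner.

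**Figure D1:**
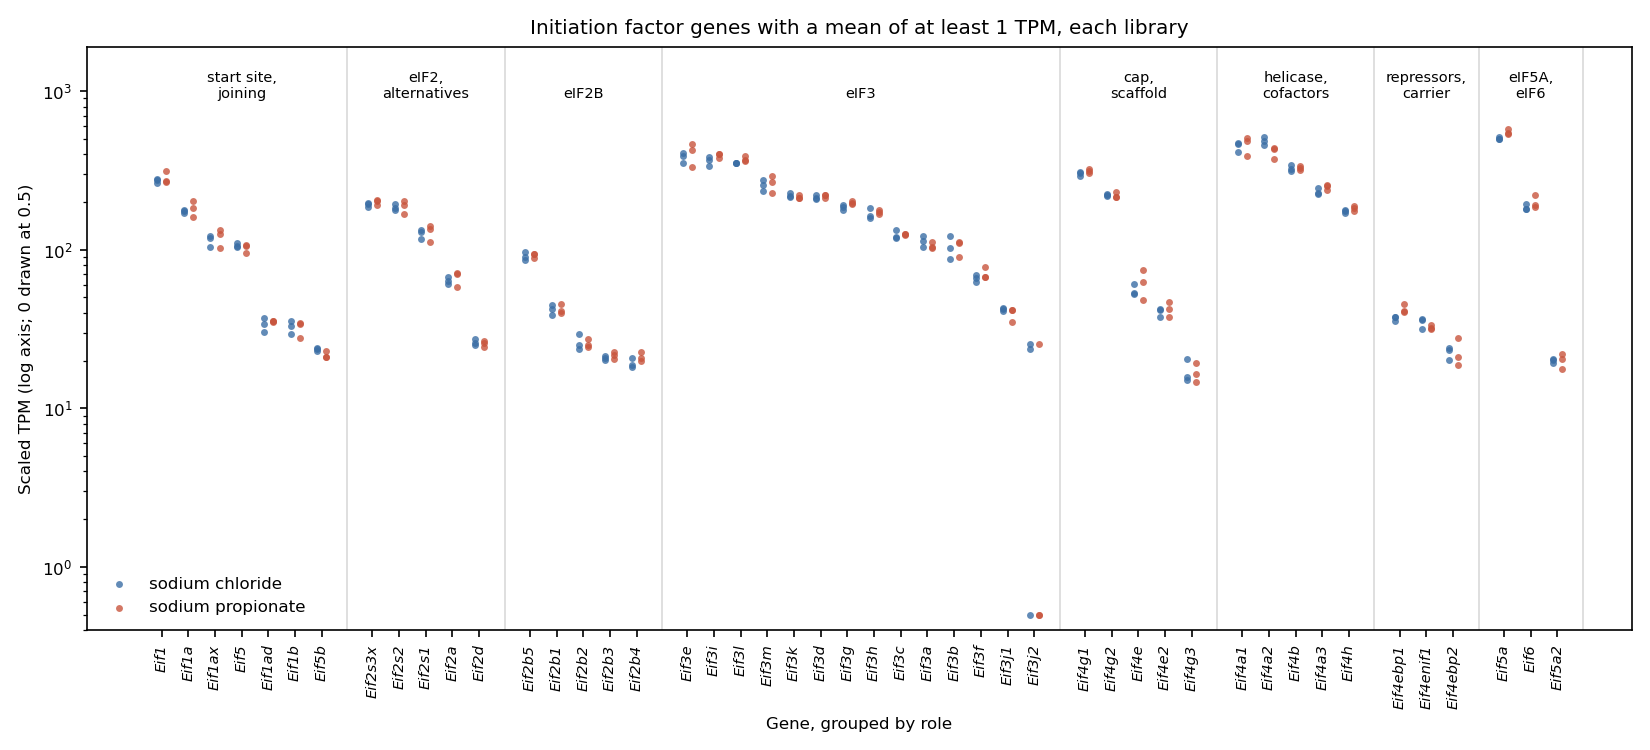
Scaled TPM of the 47 tested initiation factor genes on a log axis, 1 point for each library, grouped by role and sorted by level. The blue chloride points and the red propionate points of a gene lie close together, apart from Eif3j2, which was listed at 0 in 3 libraries (drawn at 0.5).

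**Figure D2:**
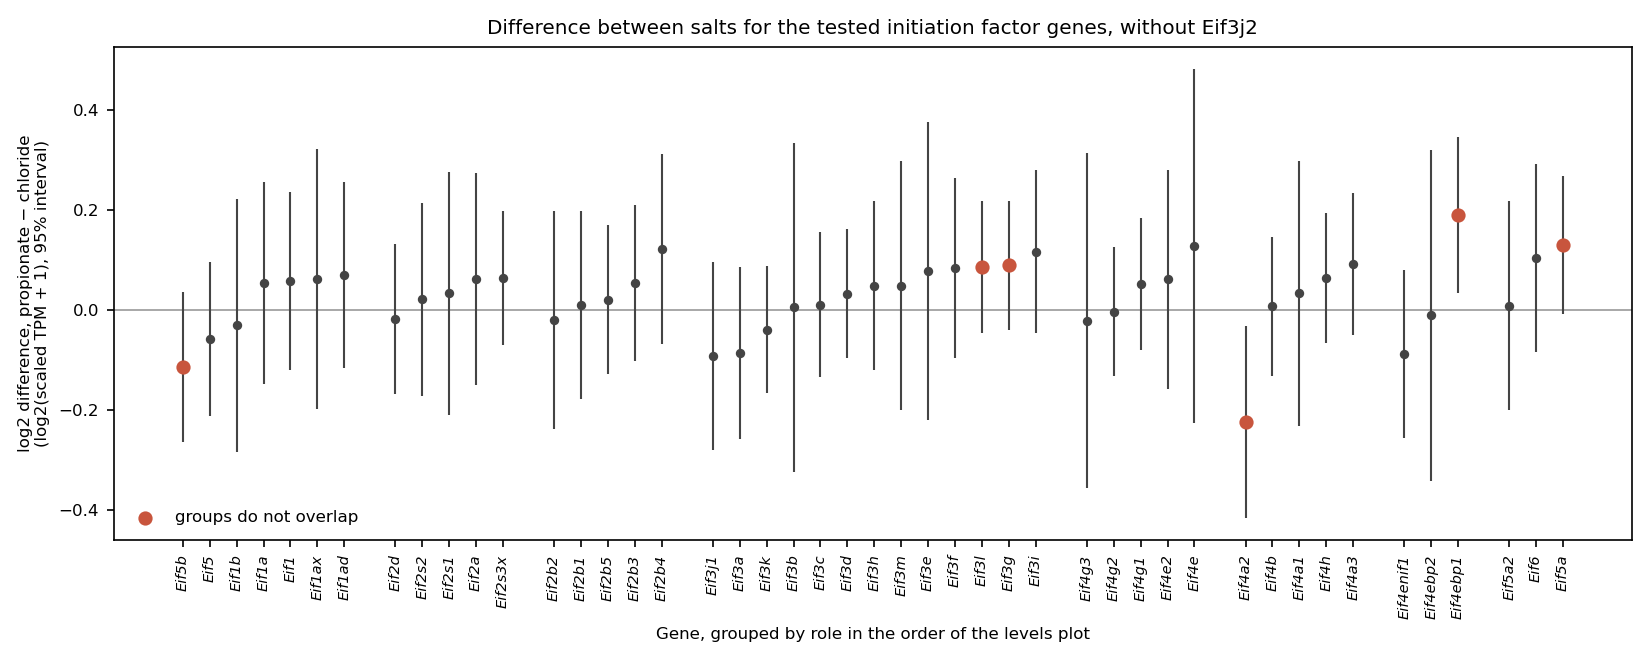
The log2 difference between salts (propionate minus chloride) with its 95% interval from limma for 46 tested members, grouped by role. Red points mark the 6 members whose groups do not overlap, and all intervals but those of Eif4a2 and Eif4ebp1 cross 0.

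Among factors of start-site selection and subunit joining, Eif1 was the most abundant. It encodes the small protein that keeps the scanning ribosome open, and it stood at 273 ± 9.39 TPM under chloride and 285 ± 24.8 under propionate. By library it was at 279, 262 and 277 against 313, 268 and 272, with propionate 1 the highest. Its paralog Eif1b, with a coding sequence 81.1% identical, stood at 32.7 ± 3.09 and 32.0 ± 3.74, or 32.9, 35.6 and 29.5 against 27.7, 34.3 and 33.99 by library. The Eif1 to Eif1b ratio was 7.36-fold to 11.3-fold across the 6 libraries.

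Eif1a and Eif1ax, the autosomal and X-linked genes of eIF1A, are 85.7% identical over the aligned coding bases. Eif1a stood at 174 ± 4.28 TPM under chloride and 182 ± 20.1 under propionate, or 178, 176 and 169.6 against 161, 202 and 182 by library. Eif1ax stood at 115 ± 9.31 and 121 ± 15.96, or 122, 118 and 105 against 103, 134 and 125. Both were lowest in propionate 1 and highest in propionate 4, and their ratio kept a narrow range, 1.45-fold to 1.62-fold. Eif5, which encodes the GTPase activator of eIF2, stood at 107 ± 3.74 and 102 ± 6.43 TPM, and Eif1ad, named for its eIF1A-like domain, at 33.8 ± 3.33 and 35.4 ± 0.222.

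Eif5b, the subunit-joining GTPase, was the lowest of these 7 genes, at 23.5 ± 0.433 TPM under chloride and 21.7 ± 1.13 under propionate. It was at 23.9, 23.7 and 23.0 TPM in chloride libraries 1, 2 and 3 against 21.1, 20.9 and 23.0 in propionate libraries 1, 4 and 5. All 3 propionate values lay below the chloride values, by very little for propionate 5. The log2 difference was -0.11 (SE 0.063, limma adjusted p = 0.914). Over 20 alternatives it ranged from -0.54 to -0.06. Reference transcripts alone gave Eif5b 22.4, 20.5 and 20.5 TPM with chloride and 9.45, 15.7 and 19.4 with propionate.

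The 3 subunits of eIF2 were of similar level. Eif2s3x, the gamma subunit that binds the initiator tRNA and GTP, stood at 192 ± 5.26 TPM under chloride and 201 ± 8.46 under propionate, or 196, 194 and 186 against 191, 207 and 204 by library. Eif2s2, the beta subunit, stood at 185 ± 8.46 and 188 ± 17.9. Eif2s1, the alpha subunit that stress kinases phosphorylate, was the lowest at 126 ± 8.69 and 129 ± 16.2, and the highest mean over the 6 libraries exceeded its mean 1.54-fold. Eif2s3y, the Y-linked copy of the gamma subunit, was listed at 0 in all 6 libraries, as were the Y-linked genes Kdm5d, Ddx3y and Uty. A part of the Eif2s3x signal is uncertain, because 34.9% of its 31-base stretches also occur in the processed pseudogene Gm2223, which was listed at 73.4 to 84.7 TPM. The alternative initiator tRNA factors were lower, with Eif2a at 63.6 ± 3.44 and 66.6 ± 7.09 TPM and Eif2d at 26.0 ± 1.10 and 25.6 ± 1.01.

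In eIF2B, transcripts of the catalytic epsilon subunit exceeded those of its partners. Eif2b5, which carries the exchange activity, stood at 91.0 ± 5.10 TPM under chloride and 92.2 ± 3.47 under propionate. The means of the other 4 subunit genes over the 6 libraries ran from 20.2 (Eif2b4) to 42.1 (Eif2b1), and Eif2b5 was above each of them in 6 of 6 libraries. Eif2b1, of the regulatory alpha subunit, was at 42.0 ± 2.91 and 42.2 ± 3.17. Eif2b2, of the beta subunit, was at 26.0 ± 2.97 and 25.5 ± 1.48, and Eif2b3, of the gamma subunit, at 20.8 ± 0.549 and 21.7 ± 1.20. Eif2b4, of the delta subunit, stood at 19.3 ± 1.31 and 21.1 ± 1.5, and by library at 20.8, 18.9 and 18.2 TPM in chloride libraries 1, 2 and 3 against 22.7, 19.8 and 20.7 in propionate libraries 1, 4 and 5. Its groups overlapped, and the log2 difference was 0.12 (SE 0.080, limma adjusted p = 0.914).

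The eIF3 complex is built of subunits that assemble with each other, but their transcripts ranged widely. Without Eif3j2, the 13 eIF3 genes ran from 40.8 (Eif3j1) to 396 TPM (Eif3e) in their mean over the 6 libraries, a 9.69-fold range. At the top, Eif3e stood at 384 ± 28.0 TPM under chloride and 408 ± 66.8 under propionate, Eif3i at 364 ± 23.6 and 394 ± 15.4 and Eif3l at 352 ± 0.210 and 374 ± 15.5. The order among these 3 was not fixed, since Eif3e exceeded Eif3i in 5 of 6 libraries and Eif3i exceeded Eif3l in 5 of 6. Next came Eif3m (254 ± 20.4 and 264 ± 32.7), Eif3k (221 ± 6.71 and 215 ± 6.06) and the cap-contacting subunit gene Eif3d (214 ± 7.11 and 219 ± 6.34). Eif3k and Eif3d could not be ordered, as each was the higher in 3 libraries. Eif3g, an RNA-binding subunit gene, stood at 185 ± 7.04 and 197 ± 4.19 TPM, and Eif3h at 168 ± 13.9 and 174 ± 5.18. The genes of the core scaffold were lower, with Eif3c at 124 ± 8.11 and 125 ± 0.521, Eif3a at 113 ± 8.87 and 106 ± 4.48 and Eif3b at 104 ± 17.9 and 104 ± 12.4. Eif3f stood at 66.5 ± 3.33 and 70.7 ± 5.94 TPM. For Eif3d, 39.6% of 31-base stretches lie on the opposite strand of the antisense gene Gm17638, listed at 4.24 to 7.63 TPM, and no source at hand says whether the quantification used strand.

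In eIF3, 10 of 14 genes lay above 0, with a median of 0.04 and a range of -1.54 (Eif3j2, described below) to 0.12. Eif3g was at 191, 178 and 187 TPM with chloride and 193, 197 and 202 with propionate. Eif3l was at 352, 352 and 352 TPM with chloride and 362, 392 and 367 with propionate. In both genes every propionate value exceeded every chloride value, by 0.09 (SE 0.055) and 0.09 (SE 0.056) on the log2 scale, with limma adjusted p = 0.914 and 0.914. Eif3i was at 366, 386 and 339 TPM with chloride and 405, 402 and 377 with propionate. Its groups overlapped, and its difference was 0.12 (SE 0.069, limma adjusted p = 0.914). With reference transcripts alone it turned to -0.38, since an assembled model then drops out of the sum.

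That model shares all exons of the annotated Eif3i-201 but joins its first and second exon into 1. Eif3i-201 was given 309, 249 and 271 TPM with chloride and 329, 177 and 174 with propionate. The assembled model was given 52.4, 119.8 and 62.9 TPM with chloride and 71.3, 221 and 199.6 with propionate. In propionate 4 and 5 the annotated model was at its lowest and the assembled one at its highest, while the gene sum in those libraries lay in the range of the others.

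The gene pair Eif3j1 and Eif3j2 could not be separated in these files. Eif3j encodes a loosely bound eIF3 subunit that contacts the mRNA channel. Their coding sequences are identical over all 783 aligned bases, and 94.0% of the 31-base stretches of Eif3j2 occur in Eif3j1. Eif3j2 was listed at 25.4, 23.5 and 0 TPM in chloride libraries 1, 2 and 3 against 0, 25.6 and 0 in propionate libraries 1, 4 and 5. The zeros fell in both groups, and the log2 difference was -1.54 (SE 1.67, limma adjusted p = 0.937). Eif3j1 was at 43.1, 41.1 and 42.1 TPM with chloride and 35.2, 41.7 and 41.8 with propionate, a mean of 42.1 ± 0.992 and 39.6 ± 3.77. Its groups overlapped, and the difference was -0.09 (SE 0.079, limma adjusted p = 0.931). With reference transcripts alone it was -1.88. The sum of both genes was 68.5, 64.7 and 42.1 against 35.2, 67.3 and 41.8, so that the Eif3j2 estimate was present or missing from one library to the next.

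Within Eif3j1 (mm10 chromosome 2, plus strand, 122028546 to 122056598), 2 assembled models were among the 3 member models with the smallest p. The first starts exon 4 at a site 3 bases later than the annotated model. The annotated junction is shown because these 3 bases, in capitals, are all that the first model leaves out at its exon junctions. The window joins bases 122041181 to 122041210, the end of exon 3, to bases 122041582 to 122041614, the start of exon 4, read from GENCODE M21:
Eif3j1 exon 3 to exon 4: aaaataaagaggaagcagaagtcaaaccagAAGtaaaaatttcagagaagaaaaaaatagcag
The first model was at 10.8, 4.17 and 8.39 TPM in chloride libraries 1, 2 and 3 and listed at 0 in all 3 propionate libraries, a fitted difference of -3.05 (SE 0.34, limma adjusted p = 0.178 over all transcript models). The second keeps 424 further bases after exon 2 and was at 0.122, 1.82 and 6.69 TPM with chloride and 31.3, 22.3 and 12.6 with propionate, a fitted difference of 2.91 (SE 0.76, limma adjusted p = 0.862). Neither model passed the threshold, and the size of the first difference depends on the pseudocount, since its propionate values are 0. Summed over the 2 models with the later start, the share of Eif3j1 with exon 4 from 122041585 was 25.0%, 10.7% and 26.2% with chloride and 11.1%, 0% and 0% with propionate, and the groups overlapped at that level. Summed over the 3 models with the longer exon 2, the share was 0.381%, 4.96% and 22.2% with chloride and 99.9999%, 53.5% and 30.2% with propionate, where the groups did not overlap. Both sums were chosen after the values were seen and are a description. The annotated Eif3j1-201 was at 32.2, 34.9 and 24.4 TPM with chloride and 0, 19.4 and 29.2 with propionate, while the gene sum lay between 35.2 and 43.1. Whether the transcripts or only the division of reads among models differed was not tested.

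**Figure D3:**
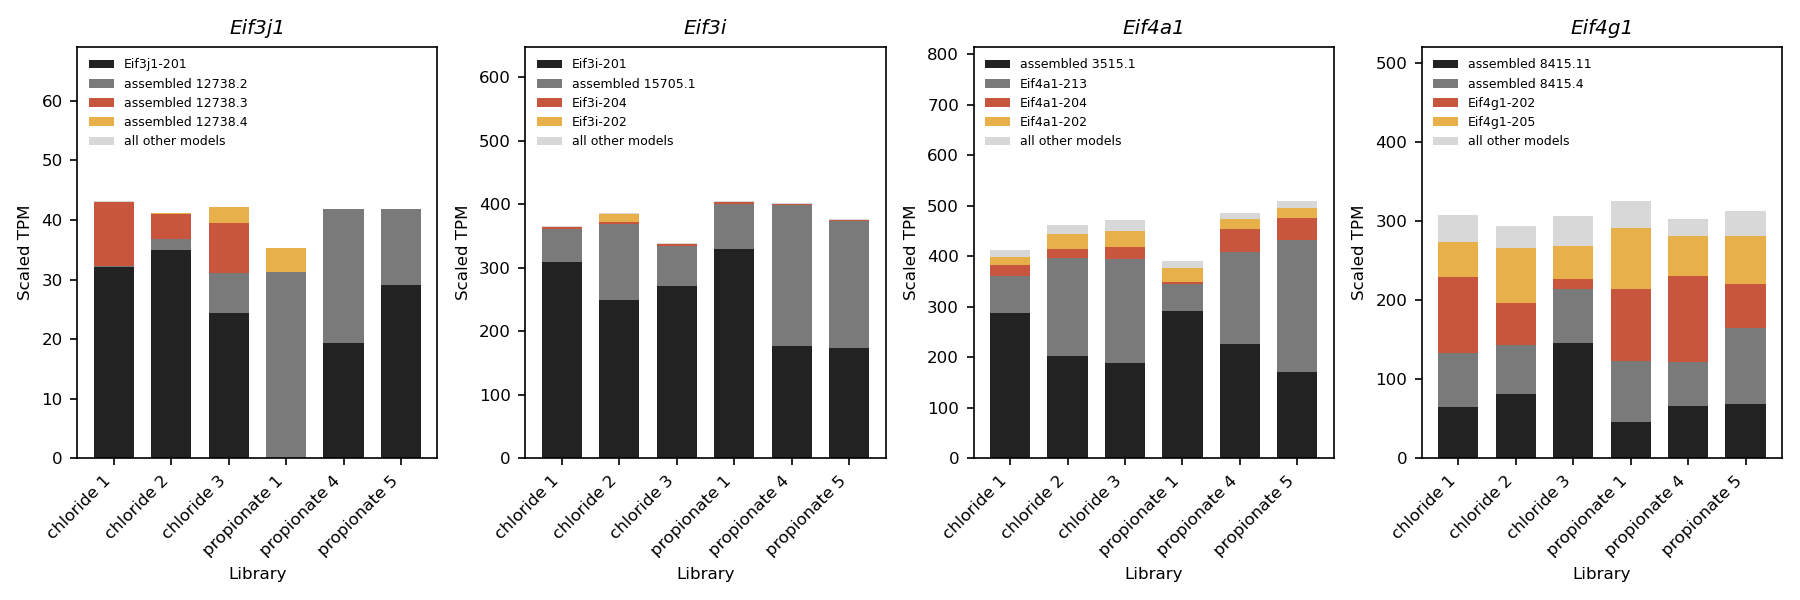
Scaled TPM of the leading 4 transcript models, stacked, and of all other models in light grey, for Eif3j1, Eif3i, Eif4a1 and Eif4g1 in each library. The height of a bar is the gene's level; in Eif3j1 the red model is present in the 3 chloride libraries and listed at 0 in the 3 propionate libraries.

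Among cap-binding and scaffold genes, Eif4g1 and Eif4g2 exceeded the cap-binding genes in 6 of 6 libraries, and Eif4g3 lay below Eif4e and Eif4e2. Eif4g1, the main eIF4G scaffold, stood at 302 ± 7.85 TPM under chloride and 313 ± 11.1 under propionate, or 307, 293 and 307 against 325, 303 and 313 by library. Eif4g2, which lacks the eIF4E-binding part, stood at 221 ± 3.62 and 220.3 ± 8.81, or 224, 217 and 221 against 230.5, 216 and 215. Eif4g3, a full-length paralog, was far lower at 17.2 ± 2.996 and 16.9 ± 2.41, or 15.8, 15.1 and 20.6 against 19.4, 14.7 and 16.4, so that Eif4g1 exceeded it 14.9-fold to 20.6-fold. The log2 ratio of Eif4g1 to Eif4g2 was 0.46, 0.43 and 0.47 with chloride and 0.50, 0.49 and 0.55 with propionate. These values do not overlap, but their means differ by only 0.06 (exact two-sided permutation test, p = 0.1, adjusted p = 0.55 over 11 ratios). No ratio could pass the threshold, since 0.1 is the smallest p that 3 against 3 libraries allow. With reference transcripts alone the difference was 0.30 (exact permutation p = 0.3).

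Eif4e, the cap-binding protein, stood at 55.7 ± 4.20 and 61.7 ± 13.04 TPM, and by library at 60.5, 53.5 and 53.0 TPM in chloride libraries 1, 2 and 3 against 48.2, 74.2 and 62.8 in propionate libraries 1, 4 and 5. The propionate values spanned the chloride values, and the log2 difference was 0.13 (SE 0.15, limma adjusted p = 0.938). Without propionate 4 the sign turned, to -0.014, and without propionate 1 it was 0.29. Eif4e2, a cap-binding homolog linked to repression, stood at 40.4 ± 2.55 and 42.3 ± 4.62 TPM, or 42.2, 41.6 and 37.5 against 42.3, 37.7 and 47.0 by library, and the Eif4e to Eif4e2 ratio ran from 1.14-fold to 1.97-fold. Eif4e3 was listed at 0.444, 0.305 and 0.892 against 0.857, 0.632 and 0.623 TPM and Eif4e1b, known from oocytes, at 0 in each library.

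The genes of the 4E-BP repressors were listed at widely different levels. Their means over the 6 libraries were 39.9 TPM for Eif4ebp1, 22.5 for Eif4ebp2 and 0.274 for Eif4ebp3. Eif4ebp1, which encodes the mTOR-regulated repressor 4E-BP1, lies on the plus strand of mm10 chromosome 8 from 27260329 to 27276674. It was at 37.9, 37.9 and 35.7 TPM in chloride libraries 1, 2 and 3 against 45.6, 41.3 and 40.8 in propionate libraries 1, 4 and 5, or 37.2 ± 1.30 and 42.6 ± 2.63 as means. All 3 propionate values exceeded the chloride values. The log2 difference was 0.19, with a 95% interval of 0.03 to 0.35 and a limma adjusted p = 0.914 (SE 0.066). Over 20 alternatives it ranged from 0.10 to 0.22, with a lowest limma adjusted p = 0.303. Without chloride 3 and propionate 1, which held the lowest and the highest value, it was 0.11.

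Eif4ebp2, with 68.2% identical coding bases, stood at 22.5 ± 1.92 and 22.5 ± 4.55 TPM, or 23.2, 20.3 and 23.9 against 27.6, 18.8 and 21.2 by library, and the Eif4ebp1 to Eif4ebp2 ratio ran from 1.49-fold to 2.20-fold with overlap between groups. Eif4ebp3 was listed at 0.125, 0.223 and 0 against 0.769, 0.412 and 0.117 TPM. The level of Eif4ebp3 is uncertain, because 66.4% of its 31-base stretches also occur in the protein-coding gene AC115631.1. Eif4enif1, the carrier that brings eIF4E into the nucleus, was at 31.7, 35.8 and 36.3 TPM with chloride and 31.8, 32.0 and 33.5 with propionate, or 34.6 ± 2.57 and 32.4 ± 0.966 as means. Its groups overlapped, and its difference was -0.09 (SE 0.071, limma adjusted p = 0.924).

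The eIF4A helicase unwinds the 5′ end of the mRNA, and its genes were among the most abundant members. Eif4a1 (mm10 chromosome 11, minus strand, 69666936 to 69672423) and Eif4a2 (chromosome 16, plus strand, 23107444 to 23114136) encode closely related helicases, with 78.2% identical coding bases. Eif4a3 encodes a helicase of the exon junction complex and stood at 234 ± 10.3 TPM under chloride and 249 ± 9.75 under propionate, or 229, 245 and 226 against 238, 257 and 251 by library. The cofactor gene Eif4b stood at 326 ± 14.8 and 327 ± 9.06 TPM, or 342, 312 and 324 against 319, 326 and 337, and Eif4h at 175 ± 4.72 and 183 ± 6.65, or 177, 179 and 169.8 against 189.6, 183 and 176. The Eif4a3-like genes Eif4a3l1 and Eif4a3l2 were listed at 0 to 0.0723 and at 0.109 to 0.499 TPM.

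Eif4a2 was lower in each propionate library than in any chloride library, by a difference that did not pass the threshold. It was at 461, 511 and 484 TPM in chloride libraries 1, 2 and 3 against 375, 438 and 435 in propionate libraries 1, 4 and 5, or 485 ± 25.2 and 416 ± 35.3 as means. The log2 difference was -0.22, with a 95% interval of -0.42 to -0.03 and a limma adjusted p = 0.914 (SE 0.081). Over 20 alternatives it stayed negative, from -0.32 to -0.15, with limma adjusted p from 0.298 to 1.00. Eif4a1 was at 413, 462 and 472 TPM with chloride and 389.9, 486 and 509 with propionate, or 449 ± 31.7 and 462 ± 63.1 as means, with overlapping groups and a difference of 0.03 (SE 0.11, limma adjusted p = 0.976).

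The ratio of Eif4a1 to Eif4a2 within a library needs no scaling. On the log2 scale it was -0.16, -0.15 and -0.04 with chloride and 0.05, 0.15 and 0.23 with propionate. Eif4a2 was thus the more abundant in 3 of 3 chloride libraries and Eif4a1 in 3 of 3 propionate libraries, with means of -0.11 ± 0.068 and 0.14 ± 0.086. The difference of 0.26 had the smallest p this design allows (exact two-sided permutation test, p = 0.1, adjusted p = 0.55 over 11 ratios). Over 11 alternatives it was 0.22 to 0.34, with exact permutation p from 0.1 to 0.6, the highest with reference transcripts alone. Of 14 paralog pairs, 11 had a ratio and 3 had a gene under 0.1 TPM in some library. The ratios of Eif4a1 to Eif4a2 and of Eif4g1 to Eif4g2 were the 2 without overlap. With reference transcripts alone 0 ratios were without overlap, and without chloride 3 and propionate 1 there were 5.

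**Figure D4:**
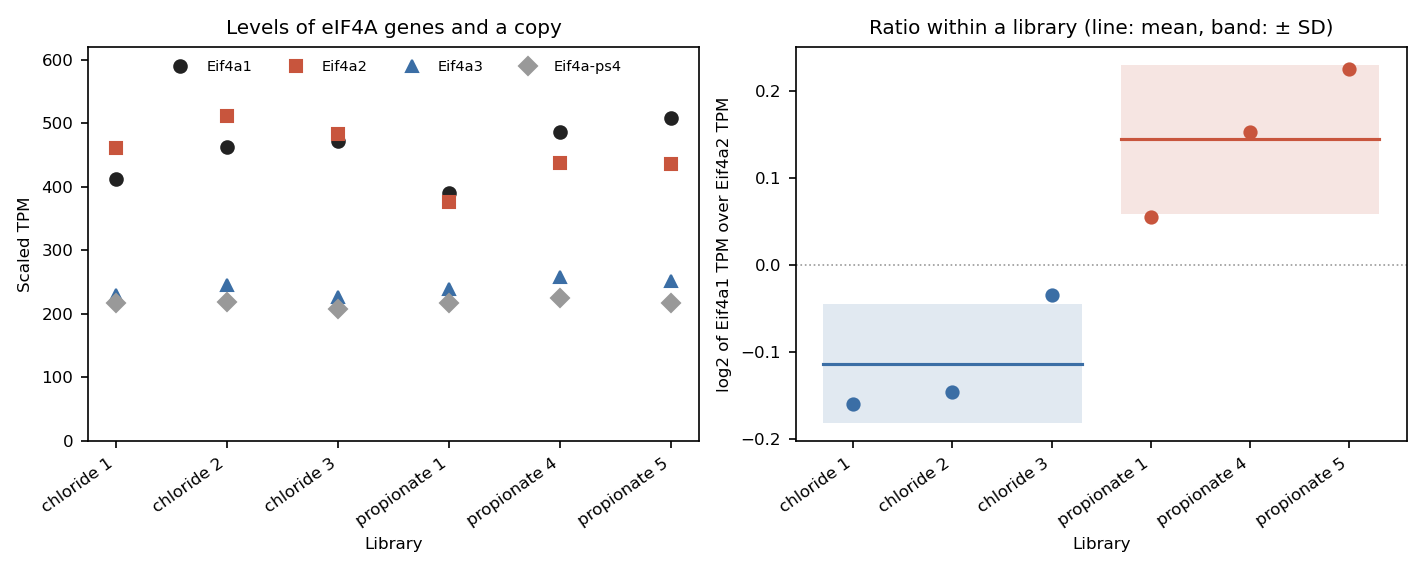
Left, scaled TPM of the 3 eIF4A genes and of the copy Eif4a-ps4 in each library. Right, log2 of the Eif4a1 to Eif4a2 ratio of TPM within a library, with group mean and SD; all 3 chloride values lie below 0 and all 3 propionate values above it.

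The level of Eif4a1 rests on how reads were divided. An assembled model of 21 exons, from 69666936 to 69681846, reaches from Eif4a1 over the neighbouring gene Senp3, which was itself listed at 5.53 to 10.4 TPM, and holds 50.1% of the Eif4a1 sum. That model was at 289, 202 and 189 TPM with chloride and 291, 226 and 172 with propionate, and the leading annotated model Eif4a1-213 at 72.1, 195 and 206 against 53.9, 183 and 261. A processed pseudogene, Eif4a-ps4, was listed at 207 to 226 TPM. Over all 1218 coding bases it differs from Eif4a1 at 1 base, G534A, counted from 1 at the start codon. The stretch around that base, coding bases 489 to 578 of the GENCODE M21 transcripts (mm10), is shown to make clear what a read can tell apart. Capitals mark bases that differ from Eif4a1, 1 in the copy and 15 in Eif4a2:
Eif4a1: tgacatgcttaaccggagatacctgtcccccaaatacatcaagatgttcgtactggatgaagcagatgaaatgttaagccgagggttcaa
Eif4a-ps4: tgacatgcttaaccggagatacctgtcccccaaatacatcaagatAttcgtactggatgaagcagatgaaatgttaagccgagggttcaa
Eif4a2: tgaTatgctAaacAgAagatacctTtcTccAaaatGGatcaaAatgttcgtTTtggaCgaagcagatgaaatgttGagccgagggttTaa
In this stretch many positions separate Eif4a1 from Eif4a2 and a single one separates it from the copy. Adding the copy, Eif4a1 would stand at 629, 681 and 679 TPM with chloride and 606, 712 and 725 with propionate, above Eif4a2 in every library and with overlapping groups. The order of Eif4a1 and Eif4a2 within a group therefore depends on whether the copy is counted. This concerns the order alone, and the difference in ratio between groups was not tested with the copy added. The copy itself was at 214 ± 6.20 and 219.6 ± 5.26 TPM.

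No single model led Eif4a2, as its highest, the annotated coding model Eif4a2-202, held 13.3% of its abundance and was at 67.1, 82.9 and 48.0 TPM with chloride and 63.7, 35.4 and 62.5 with propionate. Annotated retained-intron models, 15 in number, held 33.4%. Those models summed to 151, 173 and 176 TPM with chloride and 126, 130.1 and 146 with propionate, with every propionate value lower. The remaining models summed to 310.4, 338 and 307 TPM with chloride and 249.5, 307 and 289 with propionate, where propionate 4 lay just above chloride 3. The difference on the log2 scale was -0.31 for the retained-intron sum and -0.18 for the rest. As a share of Eif4a2 the retained-intron models overlapped between groups, at 32.7%, 33.8% and 36.5% with chloride and 33.5%, 29.7% and 33.6% with propionate.

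Of all member models, Eif4a2-218 had the second smallest p. It was at 40.2, 41.1 and 44.9 TPM in chloride libraries 1, 2 and 3 against 30.9, 32.7 and 33.5 in propionate libraries 1, 4 and 5, with no overlap and a difference of -0.37 (SE 0.091, limma adjusted p = 0.862 over all transcript models). It keeps introns 7 and 10, counted along Eif4a2-202. Their ends are printed because they are the junctions this model leaves unspliced. Exon bases are in lower case and the kept intron bases in capitals, from GENCODE M21 transcripts on the plus strand of mm10 chromosome 16, in windows at 23110694 to 23110783, 23111066 to 23111155 and 23111867 to 23111956:
Intron 7, 5′ end: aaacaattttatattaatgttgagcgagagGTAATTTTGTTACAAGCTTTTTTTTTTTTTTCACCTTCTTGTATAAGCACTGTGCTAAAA
Intron 7, 3′ end: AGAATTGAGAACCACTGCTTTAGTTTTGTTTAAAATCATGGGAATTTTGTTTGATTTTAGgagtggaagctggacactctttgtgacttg
Intron 10, 5′ end: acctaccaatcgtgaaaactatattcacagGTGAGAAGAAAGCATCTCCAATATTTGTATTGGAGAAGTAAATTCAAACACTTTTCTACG
The printed ends show the usual GT at the start of both introns and AG at the end of intron 7. Intron 7 (23110724 to 23111125, 402 bases) contains the small nucleolar RNA gene Snora81 (23110756 to 23110933, 178 bases). Intron 10 (23111897 to 23112350, 454 bases) contains none. The gene's other abundant retained-intron models also cover small nucleolar RNA genes, namely Snord2, Gm24201, Gm24616 and Gm26447. The models for Snora81, Snord2, Gm24201 and Gm26447 themselves were listed at under 0.2 TPM in every library. Reads of these small RNAs and reads of unspliced Eif4a2 cannot be told apart in such a division.

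Annotated retained-intron models of the members tended to be lower with propionate. This class was chosen after the values were seen, so its counts are a description. Of 207 tested member models, 24 were lower and 7 higher without overlap, and none passed an adjusted p of 0.05, against 0.0364% of all 35755 models. The background without overlap was 7.72% lower and 4.54% higher. Of the 48 tested retained-intron models, from 21 members, 14 from 11 genes were lower and 0 higher without overlap. In 45 the difference was negative, and the median was -0.27. Over all 4054 tested retained-intron models, 23.7% were lower and 1.28% higher without overlap, with a median of -0.23. The members' counts thus lay near those of all genes. Assembled models, which can also keep intron bases, are outside this class. Of the 46 tested assembled member models, 3 were lower and 3 higher without overlap. The Eif3j1 model with 424 further bases after exon 2 was among the higher ones, at a mean of 2.88 TPM with chloride and 22.1 with propionate. The member protein-coding models split evenly, with 4 lower and 4 higher of 99 and a median of 0.02, against 645 lower and 929 higher of 15733 over all genes and a median of 0.03.

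A shift in the same direction appeared in shares within a library, which need no scaling. Of the members' abundance, annotated retained-intron models held 4.13%, 4.76% and 5.39% with chloride and 3.72%, 3.798% and 3.99% with propionate. These shares leave out the assembled Eif3i model that joins 2 exons into 1. That model was at 52.4, 119.8 and 62.9 TPM with chloride and 71.3, 221 and 199.6 with propionate, higher on average with overlapping groups. Shares with it added were not computed, and they could lack the shift. Every propionate share lay below every chloride share, and chloride 3 was the highest. Over all genes the shares were 2.66%, 2.68% and 3.10% with chloride and 2.18%, 2.19% and 2.14% with propionate. Without Eif4a2 the members' shares were 2.22%, 2.58% and 3.13% with chloride and 2.08%, 2.22% and 2.17% with propionate, where chloride 1 and propionate 4 all but met. Of member models with no small nucleolar RNA gene inside, 10 of 38 were lower and 0 higher without overlap, against 934 and 48 of 3959 over all genes. Of the 10 that hold one, from 4 genes, 4 were lower and 0 higher, against 25 and 4 of 95 over all genes.

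Examples outside Eif4a2 were at low levels. Eif5-206, of the GTPase activator gene, was at 2.16, 1.35 and 2.88 TPM with chloride and 0.449, 1.11 and 0.827 with propionate. Eif2s1-202, of eIF2 alpha, was at 2.62, 3.26 and 3.03 against 1.75, 1.57 and 2.24. Eif3a-203, of the eIF3 scaffold, was at 3.18, 3.82 and 3.83 against 2.66, 2.50 and 2.66. In all 3 the groups did not overlap, while the gene sums of Eif5, Eif2s1 and Eif3a overlapped. Leaving out chloride 3 and propionate 1 gave 24 of the 48 member models lower and 1 higher, against 1634 and 246 of all 4054, and leaving out chloride 1 or propionate 1 alone gave 23 lower in each case, against 1560 and 1386 of all 4054.

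**Figure D5:**
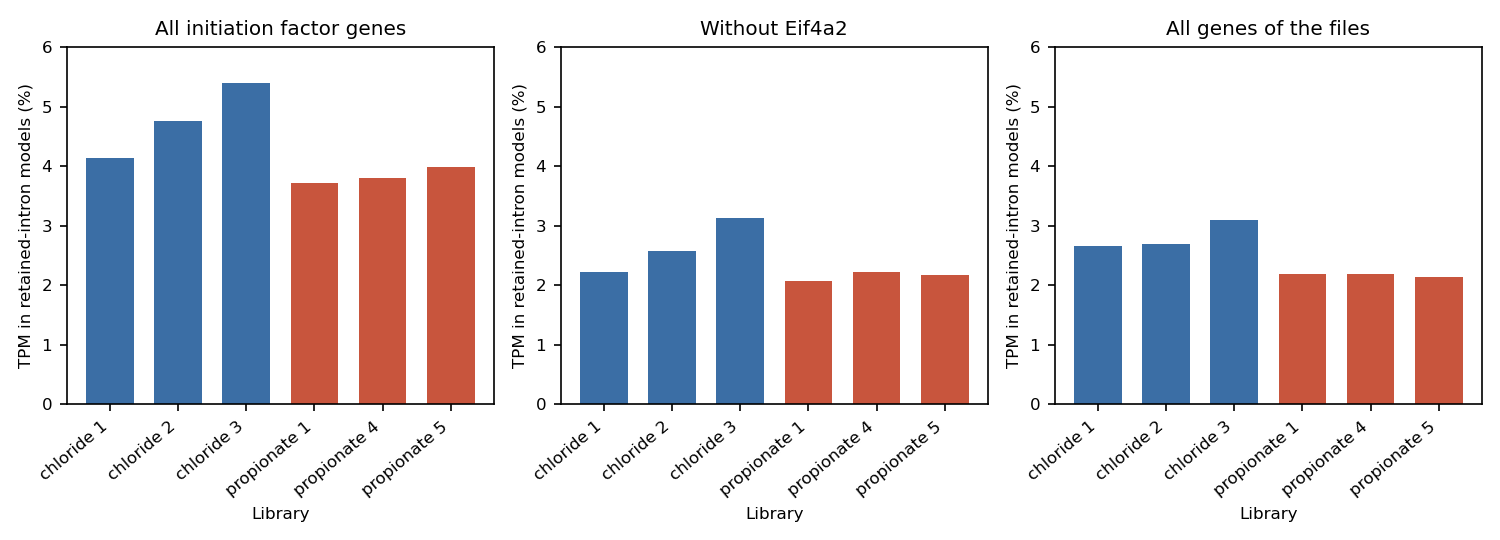
Percent of TPM given to annotated retained-intron models in each library, for all initiation factor genes, for these without Eif4a2, and for all genes of the files. In each panel chloride 3 is the highest and the propionate bars lie below the chloride bars, with chloride 1 and propionate 4 almost level once Eif4a2 is left out.

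Leading models held under 50% of the abundance in 5 further members. They were Eif4e2-204 with 32.3% of Eif4e2, and assembled models with 25.6% of Eif4g1, 46.9% of Eif4g2, 20.8% of Eif4enif1 and 18.04% of Eif4g3. The Eif4g3 model shows how far a single model can swing, at 0.113, 0.0253 and 16.6 TPM with chloride and 0, 0.125 and 1.59 with propionate. Assembled models held over 50% of the sum in Eif3a (92.2%), Eif4g3 (62.0%) and Eif4a1 (50.1%).

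The abundant members outside the scanning complexes were eIF5A and eIF6. Eif5a, whose hypusine-bearing protein helps ribosomes through difficult peptide bonds, had the highest mean of all members, 503 ± 9.51 TPM under chloride and 551 ± 22.0 under propionate. It was at 514, 499.7 and 496 TPM in chloride libraries 1, 2 and 3 against 576, 535 and 542 in propionate libraries 1, 4 and 5. All propionate values exceeded the chloride values, by a log2 difference of 0.13 (SE 0.058, limma adjusted p = 0.914). Over 20 alternatives the difference ranged from 0.03 to 0.15, with a lowest limma adjusted p = 0.330. With TPM as deposited, 0 members were higher without overlap, so the Eif5a groups overlapped there. The paralog Eif5a2, 73.2% identical, stood at 19.9 ± 0.514 and 20.1 ± 2.22 TPM. By library it was at 20.3, 20.1 and 19.3 against 17.7, 22.1 and 20.5, and Eif5a exceeded it 24.2-fold to 32.6-fold. Eif6, which keeps the large ribosomal subunit from joining too early, stood at 185 ± 8.47 and 199 ± 18.6 TPM. Eif2c5, which the annotation gives as a long noncoding RNA, was listed at 0 throughout.

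Regulators of initiation outside the members also showed no call. Of a list of 41 kinases, phosphatase subunits, mTORC1 parts and mRNA partners, all were tested and none was called by limma, with 0 at an unadjusted p under 0.05 in either direction and a median of -0.03. Without overlap, 3 of the 41 were higher and 0 lower, against 5.26% and 6.48% of all genes. The smallest p-values belonged to Tsc1, Bzw2 and Ppp1r15a. Tsc1, part of the brake on mTORC1, was at 7.64 ± 1.35 TPM under chloride and 6.28 ± 0.640 under propionate (log2 difference -0.24, SE 0.13). Bzw2, an eIF5 mimic, was at 133 ± 4.28 and 141 ± 1.24 (0.08, SE 0.051). Ppp1r15a, the stress-induced subunit of the eIF2 alpha phosphatase, was at 13.3 ± 1.18 and 14.6 ± 0.147 (0.13, SE 0.080). Each had a limma adjusted p of 0.914.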

How the data were processed

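Total RNA of GL261 cells, 3 libraries per salt, was purified with an RNeasy kit and sequenced from TruSeq stranded libraries (labels' protocols). Tools named in the submitters' processing notes are bcl2fastq, fastp, HISAT2 and StringTie, with the build mm10. Per the file headers, StringTie 2.1.1 estimated each library separately on a fixed set of 157296 models, of which 14805 were assembled from reads. No source at hand records the strand settings. The authors deposited coverage signal, FPKM and TPM for each model. The bases counted in a library follow from its coverage and FPKM values, and precision rests on the spread between 3 libraries.

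TPM were summed per gene over named models and over assembled models, each joined to the named gene of its locus and strand with most shared exon bases (11710 models). Libraries were scaled by the median over genes of the ratio to the geometric mean (factors 0.966 to 1.09). limma 3.58.1 in R 4.3.3 (lmFit, eBayes with a variance trend) tested log2(scaled TPM + 1), two-sided, for genes or models whose mean reached 1 TPM with a length of 200 nt or more, with Benjamini-Hochberg adjustment over all 15504 genes or 35755 models and a threshold of 0.05. This fold scale understates changes of low genes. Ratios were tested with an exact permutation test in scipy 1.17.1, and fits were checked on simulated data. Annotation and sequences are from GENCODE M21, which holds 141284 of the 142491 reference models. Identity comes from global alignments of coding sequence (biopython 1.88).

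Members, role groups and lists were chosen with earlier results of these data known. Levels are given for every member. Values by library, differences and p are given for the 5 tested members with the largest difference in each direction, and values by library also for paralogs. Of the regulator list the 3 smallest p are named, and of models the 3 smallest p and leading models that hold under 50% of a gene. Alternatives covered scaling, pseudocount, filters, gene sums, voom, weights and left-out libraries. Eif3g, Eif3l, Eif5-206, Eif2s1-202 and Eif3a-203 fall outside the naming rule and were chosen after their values were seen.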

Additional observations from a re-analysis of the deposited data

How the results depend on the processing

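No paired analysis was possible because the title numbers, 1, 2 and 3 for chloride and 1, 4 and 5 for propionate, share only 1. A fit with a term for chloride 3 and propionate 1, the libraries with fewer covered models, is among the alternatives and pairs no samples. Under 20 alternatives no initiation factor gene was called, and under 13 no member model was. Of 200 recomputed differences of the 10 named members, 198 kept their direction and none crossed the threshold. These 10 were picked for their large differences in the same libraries, so a kept direction partly follows from that choice. Eif3i turned to -0.38 with reference transcripts alone, and Eif4e ranged from -0.014 (without propionate replicate 4) to 0.29 (without propionate replicate 1) when each library was left out. The count of all genes called, 1, became 0 with no filter on low values and with voom, 2 with a filter at 5 TPM, with sums over the assembled locus and with library weights, and 6 without chloride 3 and propionate 1. It ranged from 1 to 4 when each library was left out, with 4 without propionate 1. The count of all models called, 13, became 2 with a pseudocount of 5, 1 with no filter, 5 with a filter at 5 TPM and 0 without chloride 3 and propionate 1, an alternative chosen after seeing the data for models. It ranged from 1 (without propionate 4) to 26 (without propionate 1) when each library was left out. The cause was not tested. The alternatives for retained-intron models were also chosen after seeing the data, and their counts move with fewer libraries because fewer values must stay apart. The main fit used TPM and no read counts, and only the voom alternative used reads, estimated from coverage. What the main fit could detect thus rests on the spread between libraries. The median 95% half-width over the 47 tested members was 0.18 on the log2 scale.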
